A study of Mus musculus with 12 samples.

Results

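The 9 genes Soat1, Soat2, Lcat, Scarb1, Pltp, Npc1, Npc2, Lipa and Mylip encode proteins that esterify cholesterol, move it between lipoproteins and cell membranes, release it in lysosomes, or act downstream of the oxysterol receptor LXR. They were taken by symbol from the 16035 genes of the deposited liver table, a choice made with earlier results of these data known, and all 9 passed the filter on low counts that left 14725 genes. The livers came from wild-type C57BL/6 mice on normal chow or on a diet that the labels name HFCF and do not spell out, in an experiment on nonalcoholic steatohepatitis. The age was 3 months in the groups fed for 1 month and 6 months in those fed for 3 months, so length of feeding and age moved together. Each of the 4 groups had 3 biological replicates, 12 libraries in all, and the 2 chow groups served as controls of the same age. The labels name no transgene or deletion and do not describe the liver lesion.

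After 3 months on HFCF, 4 of the 9 transcripts rose (Soat1, Pltp, Npc2 and Lipa), 1 fell (Lcat), and 4 did not pass the test (Soat2, Scarb1, Npc1 and Mylip). Soat1 had the largest fold change of the 9, to 2.01 times its chow level. After 1 month Lipa was the 1 gene of the 9 that rose. The calls of Pltp and Lipa at 3 months held without any single library; the other 4 calls of HFCF against chow were each lost without at least 1 library. No difference between the diet effects of the 2 months passed the test for any of the 9 genes.

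Free cholesterol in excess damages membranes, and cells store it as cholesteryl ester or pass it on. SOAT1 and SOAT2, also called ACAT1 and ACAT2, make the ester inside the endoplasmic reticulum, SOAT1 in most cells and prominently in macrophages, SOAT2 in hepatocytes and enterocytes. In plasma LCAT esterifies cholesterol on high-density lipoprotein (HDL), PLTP moves phospholipid between lipoproteins, and the receptor SR-BI, encoded by Scarb1, takes cholesteryl ester from HDL into the liver. Ester that enters by endocytosis is cut in the lysosome by the acid lipase LIPA, and NPC2 and NPC1 then carry the freed cholesterol to and through the lysosomal membrane. Oxysterols formed from cholesterol activate LXR, whose targets include Pltp and Mylip. MYLIP, also called IDOL, is a ubiquitin ligase that sends the LDL receptor to degradation.

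The libraries held 13733485 to 20277572 counts, and the counts of the 9 genes ran from 81 for Soat1 to 9930 for Lipa in a single library. Hepatocyte markers summed to between 89620 and 154200 CPM, counts scaled to library size, in every library, so the defining markers of the labelled tissue were present. HFCF replicate 3 at 3 months lay at 29.3 on the first principal component against 60.7 and 63.8 for the other 2 livers of its group, and chow replicate 1 at 1 month lay at 36.8 on the second component against 0.005 and 6.44. These 2 libraries are said below to stand apart. Levels below are TMM-scaled CPM, and changes are log2 fold changes ± SE, HFCF over chow unless stated, from the quasi-likelihood test of edgeR, with p-values adjusted by Benjamini and Hochberg over all 14725 genes; a gene passed at an adjusted p under 0.05. Counts at an unadjusted p under 0.05 are given below without the share of all genes, which was not counted. Such p were common. Npc1 at 1 month, at an unadjusted edgeR p of 0.0527, ranked 2478 of 14725 genes by p. Soat2 at 3 months, at an unadjusted edgeR p of 0.0515, ranked 4949. As the livers are bulk samples, fewer cells of a type and less RNA per cell cannot be told apart.

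The stretches upstream of the 5 genes that passed at 3 months are shown because these genes moved in 1 contrast, 4 up and Lcat down. They are from RefSeq on build GRCm38.p6, written 5′ to 3′ on the gene's strand, at most 200 bases long and free of annotated exons, ending 0 to 40 bases before the RefSeq start. Capitals mark the matches to CCAAT and GGGCGG on either strand (ATTGG and CCGCCC are their reverse complements). The first 4 belong to the genes that rose and the last to Lcat.
Soat1, chr1:156474332-156474531, minus strand: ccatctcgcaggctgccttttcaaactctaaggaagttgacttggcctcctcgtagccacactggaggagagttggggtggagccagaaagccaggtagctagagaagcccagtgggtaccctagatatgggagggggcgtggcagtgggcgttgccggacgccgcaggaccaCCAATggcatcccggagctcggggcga
Pltp, chr2:164857712-164857911, minus strand: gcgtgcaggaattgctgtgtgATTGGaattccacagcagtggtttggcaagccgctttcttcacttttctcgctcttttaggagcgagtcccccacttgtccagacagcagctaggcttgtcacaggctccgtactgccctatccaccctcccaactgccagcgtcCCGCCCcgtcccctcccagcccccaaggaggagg
Npc2, chr12:84773153-84773250, minus strand: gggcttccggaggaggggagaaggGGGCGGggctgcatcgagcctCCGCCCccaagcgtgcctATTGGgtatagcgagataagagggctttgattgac
Lipa, chr19:34527475-34527674, minus strand: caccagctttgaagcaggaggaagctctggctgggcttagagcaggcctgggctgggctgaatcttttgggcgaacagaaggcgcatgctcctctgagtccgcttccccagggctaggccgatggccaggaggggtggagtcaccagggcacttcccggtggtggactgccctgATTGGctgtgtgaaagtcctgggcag
Lcat, chr8:105943403-105943589, minus strand: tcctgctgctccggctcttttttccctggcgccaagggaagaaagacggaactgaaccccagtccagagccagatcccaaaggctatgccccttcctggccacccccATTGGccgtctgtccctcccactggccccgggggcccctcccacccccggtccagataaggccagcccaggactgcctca

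An entry was used for 6 of the 9 genes, these 5 and Mylip. Within 250 bases upstream, on both strands, CCAAT stood in all 6, against 33.8% of 32851 RefSeq promoters of the same length. GGGCGG, the GC box, stood in Mylip, Npc2 and Pltp, against 32.7% of all promoters, and TATAAA in Mylip and Lipa, against 12.4%. CACGTG, the core of the element described at lysosomal genes, was in none of the 6 and in 6.02% of all. The sterol element TCACNCCAC was in none and in 1.05% of all. AGGTCA, the site bound by LXR and other nuclear receptors, was in none and in 14.0% of all. A direct repeat of looser sites with 4 bases between was in none and in 0.067%. These looser sites allowed A or G as the first base and G or T as the third, so a match can but need not hold AGGTCA. These are matches of letters in short windows and say nothing of binding or of sites elsewhere.

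The comparison of HFCF with chow within each month asked which of these steps changed at transcript level with the diet. At 1 month 1 of the 9 genes passed, higher in HFCF (11.1%), against 2.04% of all 14725 genes in either direction and 1.04% higher. At 3 months 5 of the 9 passed (55.6%), 4 higher and 1 lower, against 19.0% of all genes, 11.5% higher and 7.50% lower. The median log2 change of the 9 was 0.26 at 1 month and 0.28 at 3 months, with -0.0046 and -0.0042 over all genes. The libraries of HFCF and chow did not overlap for 3 of the 9 genes at 1 month (Soat2, Pltp and Lipa), with 20.6% of all genes, and for 5 of the 9 at 3 months, those that passed, with 36.8% of all genes. In the authors' deposited table, Lipa alone of the 9 had an adjusted p under 0.05 at 1 month (0.00221), and at 3 months the same 5 genes did, from 4.62e-06 for Lipa to 0.0211 for Lcat. Those values come from the same libraries, and the share of all genes under 0.05 among them was not counted.

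**Figure D1:**
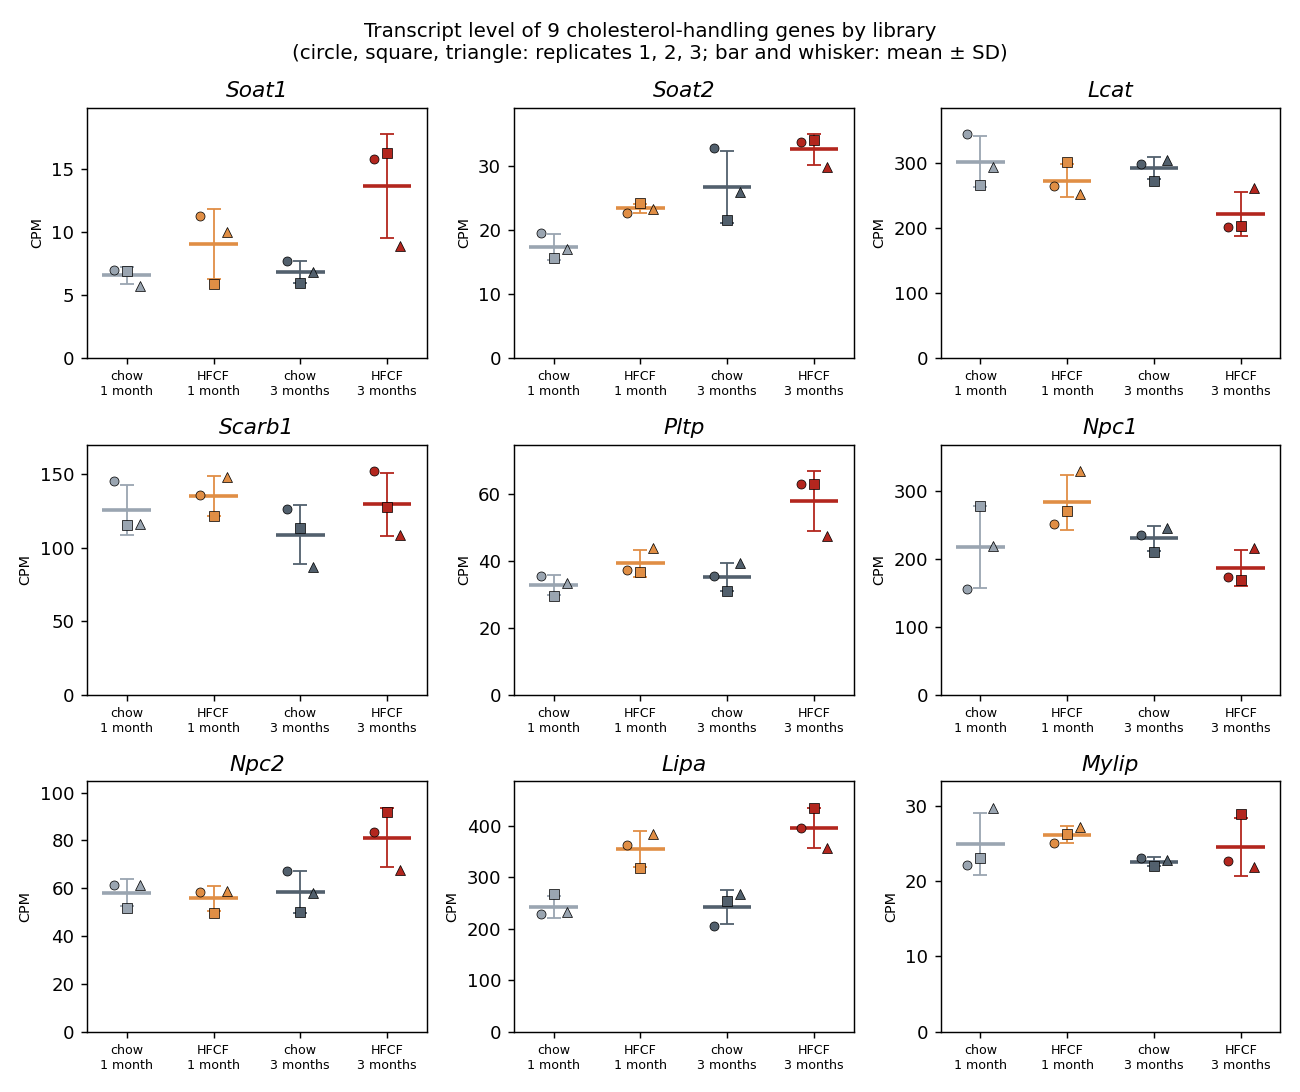
Level of the 9 genes in every library, in CPM on a linear axis from 0, by diet and months of feeding. Circles, squares and triangles are replicates 1, 2 and 3, and bars with whiskers are the mean ± SD of 3 livers. In HFCF at 3 months Soat1 replicate 3, at 8.90 CPM, lies below replicates 1 and 2 at 15.8 and 16.2 CPM.

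Soat1 (ENSMUSG00000026600, chromosome 1 from 156428108 to 156474328, minus strand, mm10) encodes the esterifying enzyme of most cell types. At 3 months it was at 7.71, 5.95 and 6.82 CPM in the chow livers and at 15.8, 16.2 and 8.90 CPM in the HFCF livers. The groups did not overlap, and HFCF replicate 3, which stands apart, was nearest to chow. The change was 1.00 ± 0.25 (edgeR adjusted p = 0.0152), and 1.22 without that replicate (edgeR adjusted p = 0.00109). The call was lost without chow replicate 2 (0.90, edgeR adjusted p = 0.0722), HFCF replicate 1 (0.90, edgeR adjusted p = 0.0624) or HFCF replicate 2 (0.86, edgeR adjusted p = 0.0702). At 1 month Soat1 was at 6.97, 6.92 and 5.74 CPM in chow and at 11.2, 5.88 and 9.96 CPM in HFCF. There 2 of the HFCF livers lay above chow and replicate 2 lay within it, and the change of 0.47 ± 0.26 did not pass (edgeR adjusted p = 0.402, 95% interval -0.09 to 1.02). An unclassified transcript model, Gm37648, overlaps Soat1 on the other strand.

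Soat2 (ENSMUSG00000023045, chromosome 15 from 102150526 to 102163474, plus strand) encodes the esterifying enzyme of the hepatocyte itself. At 1 month it was at 19.6, 15.6 and 17.1 CPM in chow and at 22.8, 24.2 and 23.3 CPM in HFCF. All 3 HFCF livers were above all 3 chow livers, yet the change of 0.43 ± 0.14 did not pass (edgeR adjusted p = 0.134, 95% interval 0.13 to 0.72). At 3 months it was at 32.9, 21.6 and 25.9 CPM in chow and at 33.8, 34.2 and 29.9 CPM in HFCF, with chow replicate 1 among the HFCF livers. The change there was 0.28 ± 0.13 (edgeR adjusted p = 0.153, 95% interval -0.0021 to 0.57), and it was 0.46 and passed without chow replicate 1 (edgeR adjusted p = 0.0258).

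The 2 esterifying enzymes were set side by side per gene length, in FPKM as the authors computed it. Soat1 made up 9.80%, 11.3% and 10.9% of the summed FPKM of Soat1 and Soat2 in the chow livers at 3 months, and 17.8%, 18% and 12.1% in the HFCF livers. The share was thus higher in each HFCF liver than in each chow liver of that month, while Soat2 remained the more abundant transcript in all 12 libraries, at 4.37 to 9.20 times Soat1. At 1 month the share was 14.9% ± 1.90 in chow and 15.1% ± 4.45 in HFCF (SD, n = 3), and the groups overlapped. In chow the share was lower at 3 months, at 10.7% ± 0.77, and in HFCF at 3 months it was 16% ± 3.34 (SD, n = 3). The 12.1% of HFCF replicate 3 at 3 months lay below the 1-month chow livers, at 13.5% to 17.1%. The shares were not tested.

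Lcat (ENSMUSG00000035237, chromosome 8 from 105939551 to 105943382, minus strand) encodes the plasma enzyme that the hepatocyte secretes to esterify cholesterol on HDL. At 3 months it was at 299, 273 and 305 CPM in chow and at 202, 204 and 261 CPM in HFCF. All 3 HFCF livers were below chow, and replicate 3 was again nearest to it. The fall was -0.39 ± 0.13 (edgeR adjusted p = 0.0494) and -0.53 without HFCF replicate 3 (edgeR adjusted p = 0.00911). It lay close to the threshold: the call was lost without each of the 3 chow replicates and HFCF replicates 1 and 2 in turn (-0.45 to -0.33, edgeR adjusted p 0.0748 to 0.181), with a mean of at least 1 CPM required (edgeR adjusted p = 0.0515) and under total library size scaling (-0.27, edgeR adjusted p = 0.103). With the replicate number as a block the edgeR adjusted p was 0.0652. At 1 month the livers overlapped, at 345, 267 and 295 CPM in chow and 265, 302 and 253 CPM in HFCF, with a change of -0.14 ± 0.13 (edgeR adjusted p = 0.637). The antisense gene Gm16156 covers all 3832 bases of Lcat on the other strand. The libraries were stranded, but the strand counted is not given in the sources used here. Whether reads of the 2 genes were counted apart is thus not known.

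Pltp (ENSMUSG00000017754, chromosome 2 from 164839518 to 164857711, minus strand), an LXR target, encodes the phospholipid transfer protein of plasma. At 3 months it was at 35.4, 31.1 and 39.4 CPM in chow and at 63.1, 62.9 and 47.5 CPM in HFCF. The 6 livers did not overlap, and HFCF replicate 3 lay between the chow livers and the other 2 of its group. The rise of 0.71 ± 0.13 (edgeR adjusted p = 0.00248), or 1.64-fold, held under every alternative setting and left-out library, as did only 1 other of the 10 calls made on these genes. At 1 month chow was at 35.6, 29.5 and 33.4 CPM and HFCF at 37.2, 36.7 and 43.8 CPM. The HFCF livers were again all above chow, by a change of 0.26 ± 0.13 that did not pass (edgeR adjusted p = 0.343). Ctsa, which overlaps Pltp by 1515 bases on the other strand, changed by 0.12 ± 0.09 at 3 months (edgeR adjusted p = 0.400).

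Scarb1 (ENSMUSG00000037936, chromosome 5 from 125277087 to 125341094, minus strand) encodes the HDL receptor SR-BI. Its livers overlapped in both months. At 3 months chow was at 126, 113 and 87.0 CPM and HFCF at 152, 128 and 109 CPM, and the change of 0.25 ± 0.15 did not pass (edgeR adjusted p = 0.273, 95% interval -0.08 to 0.58). At 1 month chow was at 145, 116 and 116 CPM and HFCF at 136, 122 and 148 CPM, with a change of 0.11 ± 0.15 (edgeR adjusted p = 0.798, 95% interval -0.22 to 0.43). The unclassified model Gm42633 overlaps Scarb1 on the same strand.

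Lipa (ENSMUSG00000024781, chromosome 19 from 34492318 to 34527474, minus strand) encodes lysosomal acid lipase, which frees cholesterol from ester taken up with lipoproteins. At 1 month it was at 228, 267 and 232 CPM in chow and at 362, 317 and 384 CPM in HFCF. At 3 months it was at 204, 253 and 267 CPM in chow and at 395, 433 and 356 CPM in HFCF. In each month every HFCF liver lay above every chow liver. The rise was 0.55 ± 0.13 at 1 month (edgeR adjusted p = 0.0465) and 0.71 ± 0.13 at 3 months (edgeR adjusted p = 0.00276), or 1.46-fold and 1.63-fold. The call at 3 months held under every alternative and left-out library. The call at 1 month did not: it was lost without any of the 3 chow replicates or HFCF replicates 1 and 3 (0.48 to 0.62, edgeR adjusted p 0.0545 to 0.177), without both libraries that stand apart (edgeR adjusted p = 0.119) and with the replicate number as a block (edgeR adjusted p = 0.0674).

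Npc2 (ENSMUSG00000021242, chromosome 12 from 84754560 to 84773112, minus strand) encodes the soluble lysosomal protein that hands cholesterol to NPC1. At 3 months it was at 67.4, 50.1 and 57.9 CPM in chow and at 83.7, 92.0 and 67.7 CPM in HFCF. The groups did not overlap, but HFCF replicate 3 lay only just above chow replicate 1. The rise was 0.47 ± 0.13 (edgeR adjusted p = 0.0239), and 0.58 without HFCF replicate 3 (edgeR adjusted p = 0.00519). The call was lost without chow replicate 2 or 3 (edgeR adjusted p = 0.120 and 0.0709) or HFCF replicate 1 or 2 (edgeR adjusted p = 0.0764 and 0.119), with changes of 0.36 to 0.46. At 1 month Npc2 was at 61.4, 51.6 and 61.5 CPM in chow and at 58.6, 49.7 and 58.9 CPM in HFCF. These livers overlapped, with a change of -0.06 ± 0.13 (edgeR adjusted p = 0.874).

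Npc1 (ENSMUSG00000024413, chromosome 18 from 12189693 to 12236400, minus strand) encodes the protein that takes cholesterol from NPC2 in the lysosomal membrane. Its transcript passed in neither month. At 1 month chow was at 156, 278 and 220 CPM and HFCF at 252, 271 and 330 CPM, with a change of 0.38 ± 0.18 (edgeR adjusted p = 0.313). The lowest chow liver is replicate 1, which stands apart, and without it and HFCF replicate 3 at 3 months the change was 0.19. At 3 months chow was at 236, 211 and 246 CPM and HFCF at 174, 170 and 217 CPM, with a change of -0.30 ± 0.18 (edgeR adjusted p = 0.256). Here 2 of the 3 HFCF livers lay below all chow livers, and without both libraries that stand apart the change was -0.43 (edgeR adjusted p = 0.0395). That setting, added after the data were seen, was the only 1 of 13 alternatives under which Npc1 passed in this month. Leaving out any single library did not bring a call. Rmc1 overlaps Npc1 by 966 bases and the antisense gene Gm15956 by 4908 bases, both on the other strand.

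Mylip (ENSMUSG00000038175, chromosome 13 from 45389742 to 45412019, plus strand), an LXR target, encodes the ligase that marks the LDL receptor for degradation. At 1 month it was at 22.1, 23.1 and 29.7 CPM in chow and at 25.1, 26.3 and 27.2 CPM in HFCF. At 3 months chow was at 23.1, 22.0 and 22.8 CPM and HFCF at 22.7, 28.9 and 21.9 CPM. In both months the livers overlapped, with changes of 0.07 ± 0.13 (edgeR adjusted p = 0.840, 95% interval -0.20 to 0.34) and 0.12 ± 0.13 (edgeR adjusted p = 0.539, 95% interval -0.15 to 0.39). Its direction depended on single libraries: it was -0.01 at 1 month without chow replicate 1 and -0.02 at 3 months without HFCF replicate 2.

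**Figure D2:**
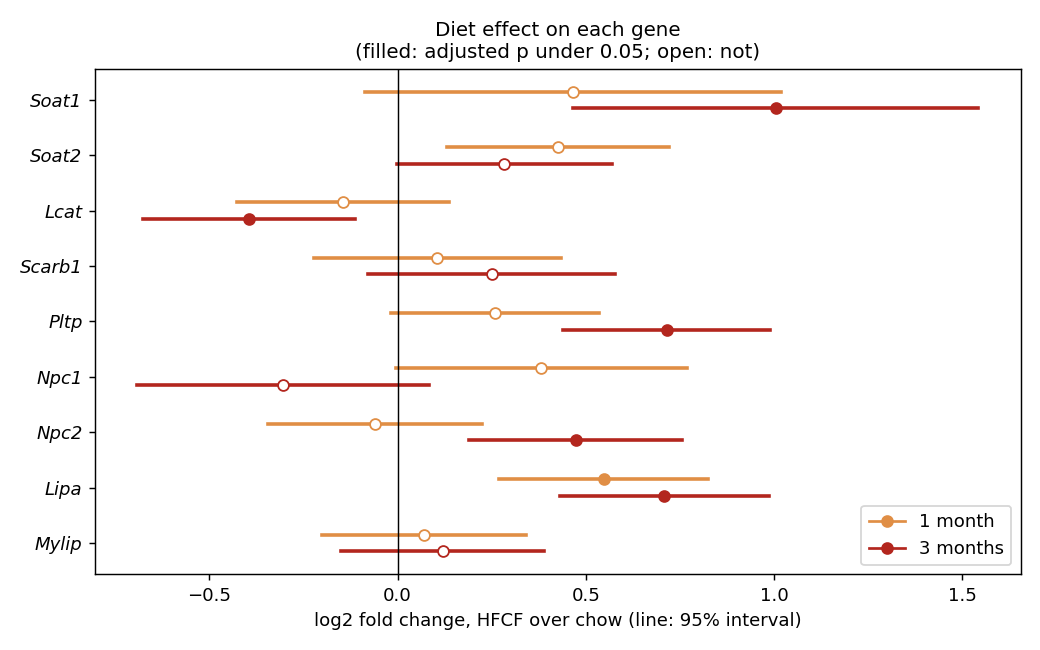
Log2 fold change of HFCF over chow for the 9 genes at 1 month and 3 months of feeding. Points are edgeR estimates, lines are 95% intervals, and filled points passed at an adjusted p under 0.05. Lipa is filled in both months, Soat1, Pltp, Npc2 and Lcat at 3 months, and the intervals of Scarb1, Npc1 and Mylip include 0 in both.

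The test of the difference between the 2 diet effects asked whether the longer feeding changed these genes more. It passed for 0 of the 9 genes by edgeR and for 0 by the DESeq2 Wald test, against 0.0407% of all genes by edgeR. At an unadjusted p under 0.05 there were 3. The effect at 3 months exceeded that at 1 month by 0.53 ± 0.19 for Npc2 (edgeR adjusted p = 0.195) and by 0.46 ± 0.18 for Pltp (edgeR adjusted p = 0.244), and for Npc1 the difference was -0.69 ± 0.25 (edgeR adjusted p = 0.221). Npc2 passed without HFCF replicate 3 at 3 months (0.64, edgeR adjusted p = 0.0450). That Soat1 and Lcat passed at 3 months but not at 1 month is thus no evidence of a difference. The 95% intervals of the difference were -0.23 to 1.31 for Soat1 and -0.65 to 0.15 for Lcat.

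Between the 2 lengths of feeding on HFCF, 4 of the 9 genes differed (44.4%), 3 higher and 1 lower at 3 months, against 16.2% of all genes, 9.25% higher and 6.95% lower. Pltp rose by 0.56 ± 0.13 (edgeR adjusted p = 0.0112), Npc2 by 0.54 ± 0.13 (edgeR adjusted p = 0.0157) and Soat2 by 0.48 ± 0.13 (edgeR adjusted p = 0.0269), while Npc1 fell (-0.60 ± 0.18, edgeR adjusted p = 0.0364). The livers of the 2 HFCF groups did not overlap for these 4. The share of all genes without overlap was not counted for this comparison. Each call was lost without HFCF replicate 1 or 2 at 3 months, with edgeR adjusted p of 0.0519 and 0.0567 for Pltp, 0.0556 and 0.0797 for Npc2, 0.0865 and 0.0993 for Soat2, and 0.137 and 0.148 for Npc1. Among the HFCF livers at 1 month, the loss came without replicates 1 and 3 for Soat2 (0.0731 and 0.0777), 2 and 3 for Npc1 (0.0601 and 0.134) and 2 for Npc2 (0.0505). Under total library size scaling Npc1 changed by -0.41 (edgeR adjusted p = 0.103). Without HFCF replicate 3 at 3 months Soat1 (0.82, edgeR adjusted p = 0.0121) and Lcat (-0.43, edgeR adjusted p = 0.0259) passed as well. Age moved with feeding here, and the 2 cannot be told apart.

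Between the 2 chow groups 0 of the 9 genes passed by edgeR, against 0.00679% of all genes, and 1 had an unadjusted p under 0.05. That gene was Soat2, at 17.4 ± 2.02 CPM after 1 month and 26.8 ± 5.67 CPM after 3 months of chow (SD, n = 3), with no overlap. Its change of 0.62 ± 0.14 (edgeR adjusted p = 0.201) passed the DESeq2 Wald test (adjusted p = 0.0245). Between the HFCF livers of the same 2 ages Soat2 changed by 0.48 ± 0.13, and these 2 changes differed by -0.14 ± 0.19 (edgeR adjusted p = 0.771). The other 8 genes changed by -0.21 to 0.10 between the chow groups.

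Per gene length, the 9 transcripts kept a clear order at its ends. Lcat, at mean FPKM of 181 to 219 in the 4 groups, was the highest in every group, and Lipa, at 76.8 to 147, was second, with no overlap between them or with the next gene. Soat1, at 1.28 to 3.17 FPKM, was the lowest in every group, also with no overlap. Between them lay Npc1, Scarb1, Npc2, Pltp, Soat2 and Mylip, at means of 7.37 to 27.5 FPKM. In chow at 1 month Npc1 at 19.2, Scarb1 at 18.7 and Npc2 at 16.7 FPKM overlapped their neighbours in the order, as did Mylip at 7.66 and Soat2 at 7.37 FPKM. In HFCF at 3 months Npc2 at 27.5 and Pltp at 25.0 FPKM stood above Scarb1 at 22.8 and Npc1 at 19.1 FPKM in mean, and each of these 4 overlapped its neighbour.

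**Figure D3:**
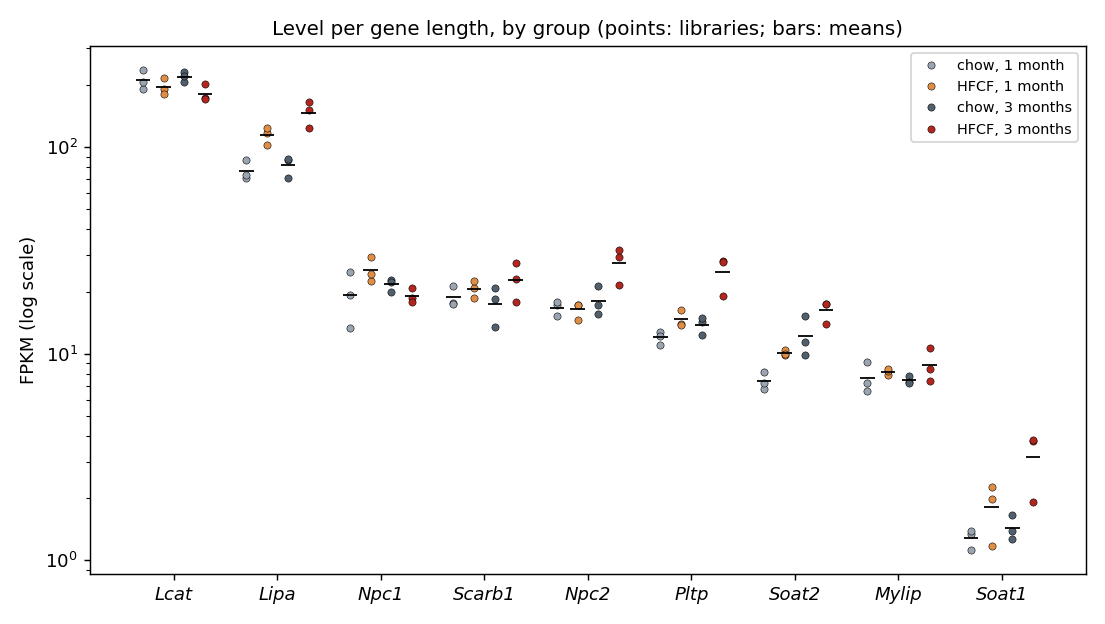
Level per gene length of the 9 genes, in FPKM as deposited by the authors, on a log axis, with 1 point per library and a bar at the mean of each group of 3. Lcat and Lipa lie above the other 7 genes in every group and Soat1 lies below them.

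Other genes of these pathways were counted from lists chosen for their roles. These lists, and the cell type marker lists below, were chosen with earlier results of these data known. Of 19 further LXR receptors and targets tested, 3 rose at 1 month and 12 at 3 months, against 1.04% and 11.5% of all genes. In both months 0 were lower, and the list medians were 0.37 and 0.58. The DESeq2 Wald test, and edgeR without HFCF replicate 3 at 3 months, called 5 higher at 1 month. Abcg5 and Abcg8, the sterol export pump of the bile canaliculus, rose at 1 month by 1.35 ± 0.15 (edgeR adjusted p = 0.00188) and 1.03 ± 0.17 (edgeR adjusted p = 0.00931), beside Scd1, the desaturase of fatty acids (2.15 ± 0.35, edgeR adjusted p = 0.0126). At 3 months Scd1 (4.47 ± 0.39, edgeR adjusted p = 0.000152), Abcg5 (1.30 ± 0.15, edgeR adjusted p = 0.000298) and the efflux transporter Abcg1 (1.43 ± 0.19, edgeR adjusted p = 0.000591) had the smallest p. Of the LXR targets among the 9 genes, Pltp rose with them at 3 months and Mylip did not pass. Cd5l and Lpl, which are among the 12, are also on the macrophage marker lists below.

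Vldlr, which encodes a lipoprotein receptor that MYLIP also sends to degradation, rose at 3 months (2.14 ± 0.48, edgeR adjusted p = 0.0121). Mylip lay at 0.07 and 0.12 in the 2 months, and neither value passed.

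Of 9 further HDL genes, 1 rose at 1 month, against 1.04% of all genes. At 3 months 1 rose and 3 fell, against 11.5% and 7.50% of all genes. The list medians were 0.15 and -0.30. The 1-month call was lost without both libraries that stood apart, and under total library size scaling 2 rose and 3 fell at 3 months. Pdzk1, which encodes the adaptor that stabilises SR-BI in the liver, rose in both months (0.34 ± 0.07, edgeR adjusted p = 0.0336, and 0.42 ± 0.07, edgeR adjusted p = 0.00220), while Scarb1 itself did not pass. Apom, an apolipoprotein of HDL, fell at 3 months (-1.19 ± 0.13, edgeR adjusted p = 0.000217), as did Ttc39b (-0.65 ± 0.16, edgeR adjusted p = 0.0163), in the same month as Lcat.

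Of 17 further lysosomal genes 0 passed at 1 month by edgeR or DESeq2, with 4 at an unadjusted p under 0.05. At 3 months 6 rose and 1 fell, against 11.5% and 7.50% of all genes. The list medians were 0.13 and 0.21. The rises included those of Hexa, which encodes a lysosomal glycosidase subunit (0.77 ± 0.12, edgeR adjusted p = 0.00122), and of the protease gene Ctsb (0.72 ± 0.15, edgeR adjusted p = 0.00475). Lipa and Npc2 rose in that month too, and Npc1 did not pass. Of 18 sterol transfer genes 1 rose at 1 month, against 1.04% of all genes, and 5 rose and 3 fell at 3 months. The list medians were 0.0002 and 0.04. Osbpl3, of the oxysterol-binding protein family, rose in both (2.17 ± 0.46, edgeR adjusted p = 0.0487, and 3.27 ± 0.44, edgeR adjusted p = 0.00178), and its relatives Osbpl5 (1.32 ± 0.28, edgeR adjusted p = 0.00581) and Osbpl8 (0.37 ± 0.08, edgeR adjusted p = 0.00719) rose at 3 months. Under total library size scaling Osbpl3 lost its call at 1 month, and 7 of the 18 rose and 1 fell at 3 months.

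Of 7 neutral cholesteryl ester hydrolases, which oppose the SOAT enzymes outside the lysosome, Lipe rose at 1 month (0.58 ± 0.13, edgeR adjusted p = 0.0353) and 1, Ces3b, fell at 3 months (-0.82 ± 0.19, edgeR adjusted p = 0.0107), with list medians of 0.40 and 0.25. The 1-month call was lost without both libraries that stood apart. Of 5 oxysterol enzymes 0 passed at 1 month by edgeR or DESeq2, with 1 at an unadjusted p under 0.05, and at 3 months Cyp46a1 (1.38 ± 0.39, edgeR adjusted p = 0.0248) and Hsd3b7 (0.41 ± 0.12, edgeR adjusted p = 0.0295) rose and Cyp7b1 fell (-1.45 ± 0.38, edgeR adjusted p = 0.0253). Without HFCF replicate 3 at 3 months 0 oxysterol enzymes rose and 1 fell by edgeR. The list medians were -0.33 and -0.32. Over all genes 1.04% rose at 1 month, and 11.5% rose and 7.50% fell at 3 months.

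Macrophage markers changed at 3 months, the month in which Soat1, Pltp, Npc2 and Lipa rose. Lipa had also risen at 1 month, when the median of the 12 macrophage markers was 0.58. For the difference between months 0 of these 12 passed by edgeR, with 1 at an unadjusted p under 0.05 and a median of 0.20. Of the 12 recruited and lipid-associated macrophage markers described below, 0 passed for that difference, with 9 at an unadjusted p under 0.05. The median difference of that list was 2.74. Over all genes 11.5% rose and 7.50% fell at 3 months. Of 12 macrophage markers 6 rose and 1, Cd163, fell at 3 months, with a median of 0.78, and their summed level was 427 to 609 CPM in chow and 960, 878 and 684 CPM in HFCF. Of 12 markers of recruited and lipid-associated macrophages 10 rose and 0 fell, with a median of 3.20 and summed levels of 59.2 to 76.3 CPM in chow and 532, 545 and 148 CPM in HFCF. HFCF replicate 3, with the lowest sums of its group, also had the lowest Soat1, Pltp, Npc2 and Lipa. It had the lowest Soat2, Scarb1 and Mylip of its group as well, genes that did not pass, and the highest Lcat and Npc1. At 1 month 0 markers of either list passed by edgeR, with 4 macrophage and 0 recruited macrophage markers at an unadjusted p under 0.05, and 2 and 0 passing the DESeq2 Wald test. In that month the 12 macrophage markers summed to 438 to 507 CPM in chow and 946, 448 and 787 CPM in HFCF. Replicate 2, the HFCF liver with the low sum, was the one whose Soat1 lay within chow, while its Lipa, at 317 CPM, lay above chow. Replicate 1, the HFCF liver with the highest sum of that month, had 58.6 CPM of Npc2, within the 51.6 to 61.5 CPM of chow, and 37.2 CPM of Pltp, against 35.6 CPM in the highest chow liver. No marker of either list was at 0 throughout a group. The part of macrophage RNA in these results was not tested.

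**Figure D4:**
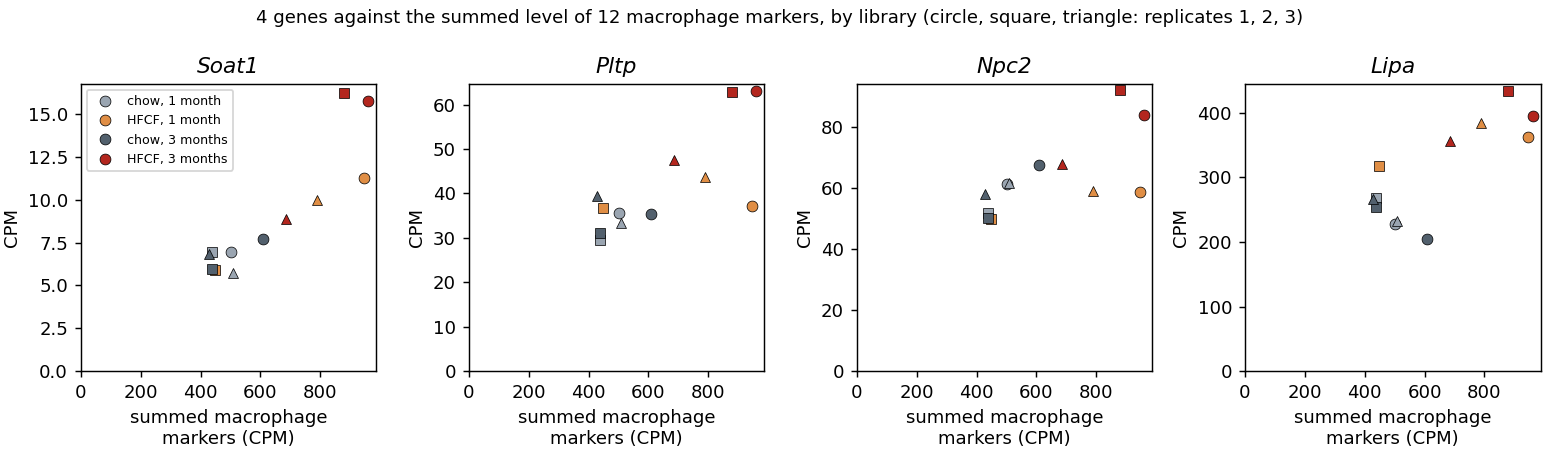
CPM of Soat1, Pltp, Npc2 and Lipa in each of the 12 libraries against the summed CPM of 12 macrophage markers in the same library, both axes linear from 0. Marker shapes are replicates and colours are groups. The HFCF livers at 3 months lie at 684 to 960 CPM of markers, and the HFCF liver at 1 month with 448 CPM has 5.88 CPM of Soat1 and 317 CPM of Lipa.

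Hepatocyte, stellate cell and neutrophil markers also changed in the same contrast. Of 12 hepatocyte markers 7 fell and 0 rose at 3 months, with a median of -0.56 and summed levels of 127000 to 131000 CPM in chow and 89620, 90010 and 106700 CPM in HFCF, and Lcat, which the hepatocyte makes, was at its lowest in the same 2 livers. Of 12 stellate cell and fibroblast markers 4 rose and 2 fell, or 7 and 2 without HFCF replicate 3, with a median of 0.86 and sums of 487 to 659 CPM in chow and 1051, 1269 and 651 CPM in HFCF. Of the markers tested, 1 of 7 for cholangiocytes (3 of 8 without HFCF replicate 3), 1 of 10 for endothelium (2 without that replicate), 1 of 5 for lymphocytes and 3 of 3 for neutrophils rose, and 0 of 6 for red blood cells passed by edgeR or DESeq2, with 1 at an unadjusted p under 0.05. The neutrophil list held 8 markers and the lymphocyte list 10, so many of them were not tested. Levels were low: the 5 neutrophil markers with values summed to 2.10 to 3.77 CPM in chow at 3 months. In HFCF at 3 months they summed to 7.48, 7.64 and 4.28 CPM. The cholangiocyte marker that rose was Spp1, which is also on the list of recruited macrophage markers. Of all genes 11.5% rose and 7.50% fell in this comparison. The medians of these 5 lists at 3 months were 0.87, 0.13, 0.03, 1.50 and 0.14. At 1 month 0 markers of these cell types passed by edgeR. At an unadjusted p under 0.05 there were 4 for endothelium, 2 for hepatocytes and 1 each for cholangiocytes, lymphocytes and neutrophils, and by the DESeq2 Wald test 2 hepatocyte markers and 1 cholangiocyte marker were lower. The part of these cells in the results was not tested.

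For each of the 5 genes that passed, the 3 genes most alike were found by Pearson's r of log2 CPM over the 12 libraries, among 8981 genes with a mean of at least 5 CPM. The libraries fall into 4 groups, so these r values include the group differences and carry no test. Soat1 was most like Lgmn, which encodes a lysosomal protease (0.976), the cytokine receptor subunit gene Il10rb (0.973) and the myeloid lectin gene Clec12a (0.973). Pltp was most like Stx2, Tgfbi and Rcn3 (0.980 to 0.969). Npc2 was most like Pam, Olfml3 and the fibroblast gene Dcn (0.953 to 0.947), and Lipa was most like Cmpk1, Atp9a and Gmfb (0.959 to 0.954). Lcat was most like Ivd, which encodes an enzyme of leucine breakdown, Pomt2 and Zdhhc7 (0.976 to 0.966).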

How the data were processed

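Liver RNA of 12 mice was sequenced from stranded TruSeq libraries after Ribo-Zero Gold treatment, per the labels' protocols. The authors deposited raw read counts per gene on mm10, per the file headers and the submitters' processing notes. They also deposited FPKM, which were used only to compare levels between genes, and the bases of each gene model. The authors' log2 ratios and their adjusted p, deposited as a score that rises as p falls and was turned back into p, were only set beside the calls made here. How reads were aligned, and on which strand they were counted, is not given in the sources used here. 1 empty line was left out.

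Counts were fitted in R 4.3.3 with edgeR 4.0.16 (filterByExpr, which removed 1310 genes; TMM factors of 0.921 to 1.14; a robust quasi-likelihood model with a mean for each of the 4 groups; common biological coefficient of variation 0.153). 5 comparisons were tested. No 2 libraries of a group were duplicates (chi-square per gene 12.1 to 59.9). DESeq2 1.42.0 gave alternative size factors and a Wald test; total library size, no filter, a mean of at least 1 CPM, a replicate block and leaving out each library were the other alternatives. 1 more alternative, without the 2 libraries that stand apart, was added after the data were seen. The fit was tested on simulated data with known changes. The p-values measure the spread between the mice sampled. 15306 identifiers matched GENCODE release M21, which gave the overlaps; coordinates are those of the deposited table. Plots come from matplotlib 3.10.9 in Python 3.11.15.

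The 9 genes and the lists were chosen with earlier results of these data known. By rule all 9 were named, with up to 3 genes a list and month among those past the threshold with the smallest p, and the 3 genes most alike for each of the 9 that passed in either month. Some genes that this rule names, and the counts of the list of receptors that MYLIP acts on, are not reported here.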

Additional observations from a re-analysis of the deposited data

How the results depend on the processing

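Of 639 alternative values for single genes, 568 kept their direction and side of the threshold, 36 lost the call, 9 gained it and 26 changed sign, each in a comparison in which that gene had not passed. Of 10 calls on the 9 genes, those of Pltp and Lipa at 3 months held under every alternative run. A loss without 1 library came with fewer samples; other causes were not tested. Soat1 had the lowest counts of the 9 genes, 81 to 372 a library, which limits its precision.

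Leaving out 1 library moved the count of the 9 genes called between 0 and 1 at 1 month, 2 and 5 at 3 months, 0 and 1 for the difference, and 0 and 6 for HFCF over time. For all genes the ranges were 65 to 289, 1255 to 3631, 0 to 878 and 732 to 3562, and 1 to 6 for chow over time. Without both libraries that stood apart the 1 month counts were 0 and 149, and all genes reached 635 for the difference, 2 for chow and 3808 for HFCF over time. The Wald test called 631 genes at 1 month, 350 for the difference and 68 for chow over time, with 1 of the 9 genes. Chow over time gave 2 with DESeq2 size factors, total library size or no filter. Total library size gave 0 for the difference and 3907 for HFCF over time. It shifts the median of all genes to 0.13 at 3 months, 0.11 for the difference, 0.10 for chow and 0.22 for HFCF over time, and raises the share of higher calls from 60.6% to 81.4% at 3 months and from 57.1% to 87.6% for HFCF over time.

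The replicate block gave 0 of the 9 genes at 1 month and 48 genes for the difference. Deviations from the group means correlated at r of -0.173 to 0.190 over 18 same-numbered pairs, with 5 above 0.1. Over 36 pairs of different number r was -0.249 to 0.240, with 6 above 0.1. These values showed no clear pairing by number, but they cannot exclude a shared cage, litter or day.

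Signs of uncalled values changed under total library size for Lcat (0.052), Lipa (0.088), over time on chow, and Scarb1 (0.15) and Mylip (0.11), over time on HFCF. Without both libraries they changed for Mylip at 1 month (-0.0095), Lcat (0.056) and Npc1 (-0.11) on chow and Scarb1 (0.046) on HFCF. Without 1 library the ranges were -0.010 to 0.21 for Mylip and -0.14 to 0.015 for Npc2 at 1 month, and -0.020 to 0.19 for Mylip at 3 months. For the difference they were -0.30 to 0.031 for Soat2 and -0.10 to 0.13 for Mylip. On chow over time they were -0.040 to 0.15 for Soat1, -0.13 to 0.056 for Lcat, -0.22 to 0.0002 for Mylip, -0.11 to 0.30 for Npc1, -0.11 to 0.11 for Npc2 and -0.084 to 0.10 for Lipa, and on HFCF -0.18 to 0.045 for Scarb1.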
